A study of Mus musculus with 2 samples.

Results

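The mitochondrial genome of the mouse encodes 13 proteins, and the genes for all 13 carried the mitochondrial flag in the authors' table of 19278 genes. The deposited table of cells gives their sum as the mitochondrial percent, the share of a cell's unique molecular identifiers (UMIs, each a tag for 1 captured RNA molecule) that fell in these genes. Female BALB/c mice were 20 weeks old when their lung cells were profiled by droplet single-cell RNA sequencing with 1 library per diet. The number of mice in a library was not stated. Feeding had begun at 4 weeks of age and lasted 16 weeks, with either a control diet (CD) or a diet high in fat (HFD). CD drew 13% of its energy from fat, 27% from protein and 60% from carbohydrate, and HFD drew 60%, 20% and 20% from the same sources, with fat from lard. Lungs were perfused, minced and digested with Liberase and DNase, and red blood cells were lysed before droplet capture. The droplet kit is given as a 3' kit in the labels and as a 5' kit in the study's methods.

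The CD library held 8793 cells with 42470977 UMIs, of which 1603993 were mitochondrial, and the HFD library held 9604 cells with 50679251 UMIs, of which 2046904 were mitochondrial. The authors had named 17 cell types among 45 fine clusters with 18106 cells and had left 6 clusters with 291 cells unannotated. No cell exceeded the authors' limit of 20% mitochondrial UMIs, so any cells above it had been removed before deposit. The libraries had 27 cell barcodes in common, and no step that removes doublets is stated. Diet, animals and library preparation cannot be told apart with 1 library per diet. No test was therefore run, cells are not treated as replicates, and intervals cover counting error only. The values of single genes, and with them the markers of the named cell types, were not analysed here.

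Mitochondrially encoded proteins are core subunits of the respiratory chain, the series of complexes in the inner mitochondrial membrane that passes electrons to oxygen and drives ATP synthesis. Nearly all other mitochondrial proteins are encoded in the nucleus and imported. Mitochondrial messenger RNAs are transcribed as long precursors, cut apart at the tRNAs that lie between the genes, and given short poly(A) tails, which lets oligo(dT) primers capture them. In single-cell work their share is used as a measure of cell quality, because a cell with a leaky membrane can lose cytoplasmic RNA while retaining its mitochondria. The share also differs between healthy cell types with their content of mitochondria.

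The flagged genes comprised 7 subunits of complex I (NADH dehydrogenase: mt-Nd1, mt-Nd2, mt-Nd3, mt-Nd4, mt-Nd4l, mt-Nd5 and mt-Nd6), 1 of complex III (cytochrome b, mt-Cytb), 3 of complex IV (cytochrome c oxidase: mt-Co1, mt-Co2 and mt-Co3) and 2 of complex V (ATP synthase: mt-Atp6 and mt-Atp8). In the GENCODE M21 annotation of GRCm38 all 13 lie on the mitochondrial chromosome, 12 on the plus strand and mt-Nd6 alone on the minus strand. Gene lengths, with bases shared by neighbours counted for each gene, summed to 11403 bases, of which complex I had 6361, complex IV 3013, complex III 1144 and complex V 885. They range from the 204 bases of mt-Atp8 (chrM:7766-7969) to the 1824 bases of mt-Nd5 (chrM:11742-13565). GC content ranged from 31.9% in mt-Atp8 to 41.1% in mt-Nd4l (chrM:9877-10173). The same chromosome carries 22 tRNA and 2 rRNA genes, and 0 of them are in the gene table, so the percent holds messenger RNA genes only. By the study's methods, mitochondrial genes were set aside before the highly variable genes for clustering were chosen, so the fine clusters were not built from them directly.

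The genes are packed so tightly that 4 neighbouring pairs share bases. Where both genes of a pair lie on the same strand, UMIs from the shared stretch cannot be assigned to 1 member from the bases alone. How the authors' counting treated such reads, and whether they entered the summed percent, was not tested. Each shared stretch of more than 1 base is given here on the plus strand of GRCm38, 5′ to 3′. Capitals mark, at the left, the start codon of the downstream gene (for the pair on opposite strands, the mt-Nd6 stop codon read in reverse) and, at the right, the stop codon of the upstream gene.
mt-Atp8 and mt-Atp6, chrM:7927-7969, 43 bases: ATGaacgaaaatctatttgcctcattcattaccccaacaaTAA
mt-Nd4l and mt-Nd4, chrM:10167-10173, 7 bases: ATGcTAA
mt-Nd5 (plus) and mt-Nd6 (minus), chrM:13552-13565, 14 bases: TTAatctcgagTAA

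The genes also differ at their 3' ends, where 3 of the 13 stop after the first base of a stop codon and gain the rest only from the poly(A) tail. Their last bases are shown beside those of mt-Co1, whose stop codon is complete in the genome. All 4 lie on the plus strand, sequences are from GENCODE M21 transcripts, and capitals mark the genomic part of the stop codon.
mt-Co3, chrM:8607-9390: tattgatgaggatctT
mt-Nd4, chrM:10167-11544: acaggcctgacaataT
mt-Cytb, chrM:14145-15288: ctaaaattatatccaT
mt-Co1, chrM:5328-6872: gtaaaagtaaaaTAA
Start codons also departed from ATG in 4 genes of complex I: GTG in mt-Nd1 (chrM:2751-3707), ATA in mt-Nd2 (chrM:3914-4951), ATT in mt-Nd3 (chrM:9459-9806) and ATC in mt-Nd5. The remaining genes are mt-Co2 (chrM:7013-7696), mt-Atp6 (chrM:7927-8607) and mt-Nd6 (chrM:13552-14070, minus strand). The Ensembl identifiers in the gene table are ENSMUSG00000064341 for mt-Nd1, ENSMUSG00000064345 for mt-Nd2, ENSMUSG00000064360 for mt-Nd3, ENSMUSG00000064363 for mt-Nd4, ENSMUSG00000065947 for mt-Nd4l, ENSMUSG00000064367 for mt-Nd5 and ENSMUSG00000064368 for mt-Nd6 in complex I, and ENSMUSG00000064370 for mt-Cytb in complex III. They are ENSMUSG00000064351 for mt-Co1, ENSMUSG00000064354 for mt-Co2 and ENSMUSG00000064358 for mt-Co3 in complex IV, and ENSMUSG00000064357 for mt-Atp6 and ENSMUSG00000064356 for mt-Atp8 in complex V.

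Over all cells of a library, these genes took 3.78% of the UMIs in CD (exact 95% binomial interval 3.77 to 3.78) and 4.04% in HFD (4.03 to 4.04), 1.069 times the CD share (1.067 to 1.072). The mean over cells was 3.66% ± 2.39 (SD over 8793 cells) in CD and 4.03% ± 2.77 (SD over 9604 cells) in HFD. The middle 50% of cells lay between 2.31% and 4.42% in CD and between 2.43% and 4.86% in HFD. From the 5th to the 95th percentile the range was 0.529% to 7.70% in CD and 0.655% to 9.30% in HFD. The difference between libraries was small beside the spread over cells, and it was wider at the upper end of the distribution than at its centre. In molecules, the median cell held 114 mitochondrial and 3236 other UMIs in CD, compared to 128 and 3466 in HFD, so that both counts were higher in HFD, by ratios of 1.12 and 1.07.

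Cell types differed far more than libraries did. Neutrophils, short-lived granulocytes that draw their energy mainly from glycolysis, were lowest, with a median of 0.483% in CD (363 cells, quartiles 0.228 to 1.26) and 0.595% in HFD (380 cells, 0.327 to 1.29). Alveolar type 2 (AT2) cells, which produce surfactant and are rich in mitochondria, were highest in CD at 5.65% (400 cells, 4.37 to 7.07) and stood at 5.63% in HFD (634 cells, 4.33 to 7.22). The highest type median was 11.7 times the lowest in CD and 10.1 times in HFD. The order of the 17 type medians was alike in both libraries, with a Spearman rho of 0.961 over the 17 types, which shared their library and the joint annotation. Cell type nevertheless took up only 14.0% of the variance over annotated cells in CD and 11.4% in HFD, and fine cluster 18.0% and 15.9%. Most of the spread thus lay between cells of the same cluster. Within types the SD over cells was 3.64 to 16.4 times the SD that counting alone gives in CD and 3.42 to 13.6 times in HFD.

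**Figure D1:**
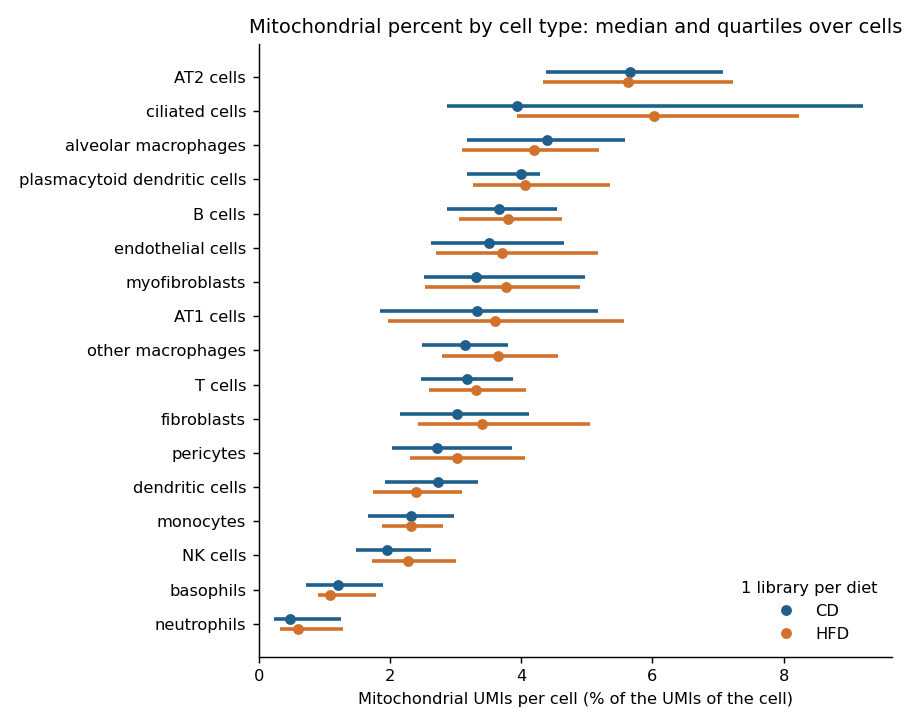
Mitochondrial percent by cell type, ordered by the mean of both medians. Points are medians over cells, lines run from the first to the last quartile bound, CD in blue and HFD in orange with 1 library each. Neutrophils lie lowest at 0.483% and 0.595%, AT2 cells near 5.6% in both, and the quartiles of the libraries overlap in every type.

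Above neutrophils came basophils, granulocytes of allergic responses, at 1.21% in CD (29 cells) and 1.09% in HFD (33 cells). Natural killer (NK) cells, cytotoxic lymphocytes, stood at 1.95% in CD (325 cells) and 2.28% in HFD (334 cells). Monocytes, precursors of macrophages that circulate in blood, had 2.32% in CD (160 cells) and 2.32% in HFD (182 cells). These 4 blood-borne types and dendritic cells were cleanly ordered, since each had both library medians above both medians of the type before it.

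Dendritic cells, which present antigen, stood at 2.73% in CD (85 cells) and 2.40% in HFD (89 cells). Pericytes, the contractile cells around capillaries, stood at 2.72% (347 cells) and 3.03% (382 cells). Fibroblasts, which build the matrix, had 3.03% (877 cells) and 3.41% (1191 cells). Types in this middle range were close to each other, and from dendritic cells to B cells no step to the next type separated the medians of both libraries.

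T cells had medians of 3.17% in CD (1411 cells) and 3.31% in HFD (1439 cells). Macrophages other than alveolar ones had 3.14% (128 cells) and 3.64% (153 cells). Alveolar type 1 (AT1) cells, the flat cells of gas exchange, had 3.32% (185 cells) and 3.60% (334 cells). AT1 cells were therefore below AT2 cells by over 2 percentage points in both libraries although both line the same alveoli.

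Myofibroblasts, contractile matrix cells, had medians of 3.31% in CD (201 cells) and 3.77% in HFD (244 cells). Endothelial cells, which line vessels and were the most numerous type, had 3.52% (2889 cells) and 3.71% (2840 cells). B cells had 3.67% (919 cells) and 3.80% (840 cells). Within the lymphocytes, NK cells lay below T cells and T cells below B cells in both libraries.

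Plasmacytoid dendritic cells, producers of type I interferon, stood at 4.00% in CD (30 cells) and 4.05% in HFD (40 cells). Alveolar macrophages, the resident phagocytes that clear surfactant, stood at 4.40% (293 cells) and 4.19% (266 cells). Ciliated cells, which beat mucus along the airways, had 3.94% in CD (31 cells, quartiles 2.87 to 9.21) and 6.02% in HFD (52 cells, 3.94 to 8.24). Ciliated cells thus changed place most, from rank 14 of 17 in CD to rank 17 in HFD, with few cells and quartiles that overlapped. Of the 16 steps between neighbouring types in the order, 6 separated the medians of both libraries and 10 did not.

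The median mitochondrial percent of a type had a Spearman rho of 0.586 in CD and 0.574 in HFD with its median UMIs, over 17 types that share their library. Neutrophils had a median of 8 mitochondrial UMIs among 1666 UMIs in CD and 12 among 2073 in HFD. NK cells, at a similar depth of 2097 and 2717 UMIs, had 40 and 62 mitochondrial UMIs. B cells, at 2468 and 2784 UMIs, had 95 and 109. At the deep end, dendritic cells had 216 mitochondrial UMIs among 8476 in CD and 196 among 8987 in HFD, whereas AT2 cells had 584 among 10937 and 684 among 12488.5. Depth differed between these types too, but mitochondrial molecules differed by a larger ratio than depth did, at the shallow and at the deep end.

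**Figure D2:**
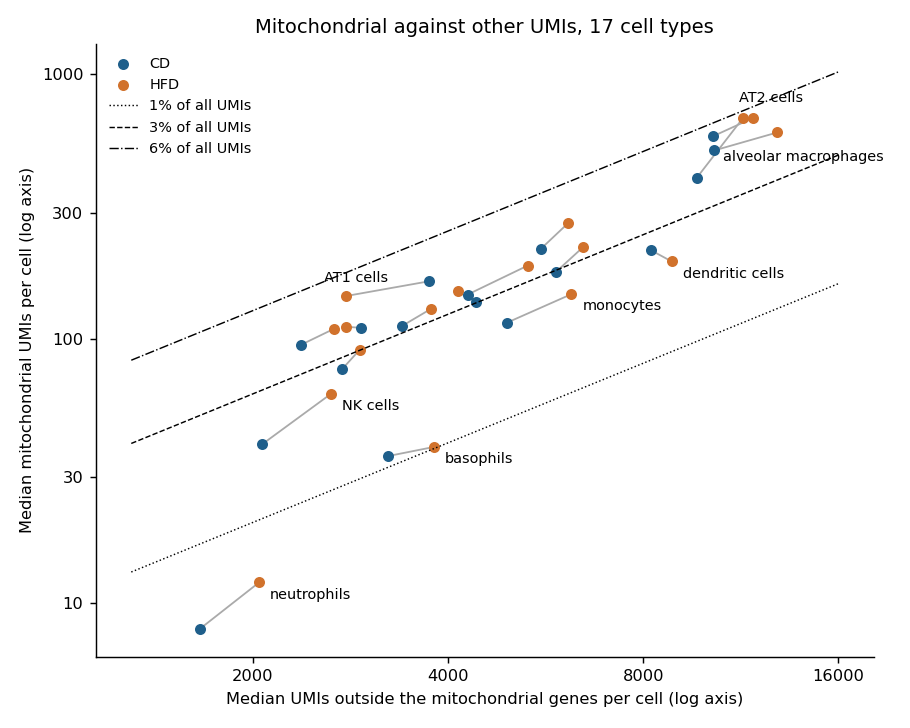
Median mitochondrial UMIs per cell against median UMIs outside the mitochondrial genes, both on log axes, 1 blue (CD) and 1 orange (HFD) point for each of 17 types joined by a line. Broken lines mark 1%, 3% and 6% of all UMIs, and neutrophils with 8 and 12 mitochondrial UMIs lie far below types of similar depth.

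Between libraries, the median percent was higher in HFD in 13 of the 17 types and lower in basophils, dendritic cells, alveolar macrophages and AT2 cells. In all 17 the difference of medians was smaller than the interquartile range of the type. The median of mitochondrial UMIs was higher in HFD in 15 types and that of other UMIs in 14, so the percent compares counts that were mostly both higher. NK cells had ratios of 1.55 for mitochondrial and 1.28 for other UMIs. In fibroblasts mitochondrial UMIs were higher at a ratio of 1.09 and other UMIs lower at 0.937, although the ratio of other UMIs was above 1 within each of the 5 fibroblast clusters (1.02 to 1.13). Both counts were lower in AT1 cells of HFD, with 145 compared to 165 mitochondrial UMIs (ratio 0.879) and 2783 compared to 3743 other UMIs (0.744), and the higher percent of AT1 cells in HFD therefore came with fewer mitochondrial molecules per cell.

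When the UMIs of each type were summed, 13 types had an interval of the HFD to CD ratio above 1. The ratio was highest in macrophages other than alveolar ones at 1.25 (1.23 to 1.27), followed by ciliated cells at 1.23 (1.21 to 1.25), NK cells at 1.16 (1.14 to 1.19) and neutrophils at 1.15 (1.12 to 1.18). Basophils at 0.792 (0.742 to 0.845) and monocytes at 0.910 (0.894 to 0.925) had intervals below 1, and those of dendritic cells and alveolar macrophages included 1. These intervals treat every UMI as an independent draw and are narrower than the spread between cells warrants. In monocytes the sum and the median differed in direction, since the median was 2.32% in both libraries and higher in HFD by 0.0065 percentage points. In AT2 cells they differed the other way, with a ratio of 1.01 (1.00 to 1.01) for the sum and a median that was lower in HFD.

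The mean over annotated cells was 3.66% in CD and 4.05% in HFD, a difference of 0.391 percentage points. With the CD composition of cell types held for both libraries the difference was 0.336, or 86.0% of it, and 0.0548 went with composition. With fine clusters in place of types, 0.262 (67.1%) lay within clusters and 0.129 went with cluster composition. Endothelial cells gave 37.2% of the difference within types, fibroblasts 18.7%, T cells 13.2%, B cells 9.16% and NK cells 6.09%. In the same order, these types made up 33.3%, 10.1%, 16.3%, 10.6% and 3.75% of the annotated CD cells, the weights used. Alveolar macrophages contributed in the other direction, at -3.62%. The difference within types was smaller without shallow cells or without the upper tail, at 0.125 among cells of at least 3000 UMIs and 0.205 among cells of at most 10% mitochondrial UMIs. Among cells of at least 3000 UMIs, 9 of the 16 types with 20 cells or more in each library had the higher median in HFD.

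The order of the fine clusters was likewise similar in both libraries. Of 51 clusters, 44 had at least 20 cells in each library, 34 of them with a higher median in HFD and 10 with a lower one. The Spearman rho of their medians between libraries was 0.959 over 44 clusters. Ordered by the mean of both library medians, the 3 lowest of these 44 were cluster 9 of neutrophils (0.453% in CD and 0.569% in HFD), cluster 44 of basophils (1.21% and 1.09%) and cluster 11 of NK cells (1.95% and 2.28%). The 3 highest were cluster 10 of AT2 cells (5.71% and 5.85%), cluster 27 of AT2 cells (5.55% and 5.02%) and cluster 37, which held all ciliated cells (3.94% and 6.02%). In CD alone cluster 37 lay below cluster 1 of endothelial cells (4.78%), cluster 13 of alveolar macrophages (4.40%), unannotated cluster 42 (4.36%) and cluster 40 of plasmacytoid dendritic cells (4.00%). The AT2 clusters thus differed between libraries in opposite directions, while AT1 cells formed the single cluster 16 (3.32% and 3.60%).

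**Figure D3:**
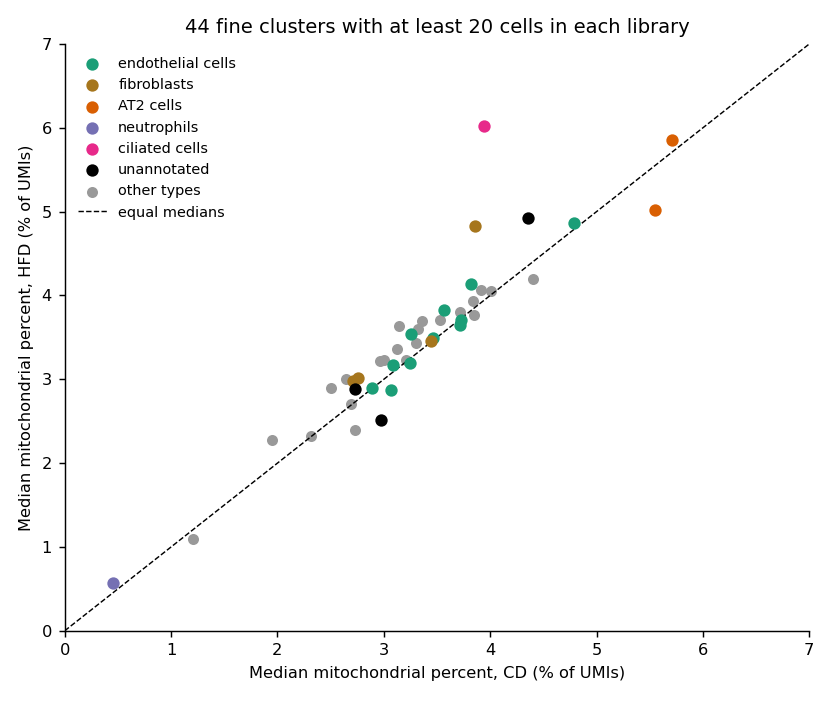
Median mitochondrial percent of 44 fine clusters in HFD against CD, 1 point per cluster coloured by type, with a broken line where both are equal. Most points lie near the line, 34 above and 10 below it, and cluster 37 of ciliated cells (3.94% and 6.02%) stands farthest from it.

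Among these 44 clusters, the largest differences between library medians were those of cluster 37 at 2.08 percentage points, of fibroblast cluster 22 at 0.970 and of unannotated cluster 42 at 0.565. The means of cluster 37 were closer, at 6.27% in CD and 6.59% in HFD. Cluster 22 had a median of 3.86% in CD (119 cells) and 4.83% in HFD (247 cells) at only 1310 and 1327 UMIs per cell. The largest fibroblast cluster, cluster 8, stood at 3.44% (310 cells) and 3.46% (406 cells) at 4082 and 4434 UMIs, and the deeper cluster 12 at 2.71% (292 cells) and 2.98% (284 cells) at 6307.5 and 7127 UMIs. Fibroblast cluster 38 held 15 cells in CD and 62 in HFD, with medians of 7.67% and 7.85% at 1339 and 1346.5 UMIs per cell, and was below the minimum of 20 cells. Clusters 8, 12 and 38 were chosen after their values were seen. Clusters 22 and 38 together held 134 of 877 fibroblasts in CD (15.3%, 13.0 to 17.8) and 309 of 1191 in HFD (25.9%, 23.5 to 28.5).

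Endothelial cells formed 11 clusters with medians from 2.89% to 4.78% in CD and from 2.87% to 4.86% in HFD. Cluster 1 was the highest in both (410 and 580 cells) and had 1583 and 1481.5 UMIs per cell, compared to 7234 and 7207.5 in cluster 30 (201 and 106 cells), where the median percent was 2.89% and 2.90%. Both clusters were likewise chosen after their values were seen. Neutrophils formed cluster 9 and a small cluster 47 (14 and 17 cells), in which the median was 2.31% in CD and 2.45% in HFD at 4956 and 4841 UMIs. Cluster 47 was below the minimum of 20 cells and not among the clusters named by rule. In neutrophils 1 type name thus covered clusters that differed several-fold in the share, although 1 of them held few cells.

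The unannotated clusters covered a wide range. Cluster 39 had a median of 2.98% in CD (32 cells) and 2.52% in HFD (44 cells), and cluster 42 had 4.36% (30 cells) and 4.92% (36 cells). Cluster 46 stood at 2.72% (30 cells) and 2.88% (22 cells), and cluster 51 at 2.90% (8 cells) and 2.69% (10 cells). Cluster 50 had 3.83% (16 cells) and 1.60% (5 cells) at the depth of 63452.5 and 72860 UMIs per cell, the deepest of the 6. Cluster 45 had 1.55% in its 4 CD cells and 0.699% in its 54 HFD cells, at 2543 and 7329 UMIs but only 536.5 and 415.5 detected genes. Clusters 45, 50 and 51 had under 20 cells in at least 1 library.

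The relation of mitochondrial percent to UMIs differed in sign between types. Since the UMIs of a cell are the denominator of its percent and also set its counting error, the coefficients below describe these cells only. The Spearman rho over cells was negative in both libraries in 5 types, positive in both in 6 and of mixed sign in 6. Negative values were found in AT2 cells (-0.195 in CD and -0.258 in HFD, over 400 and 634 cells), fibroblasts (-0.199 and -0.258, over 877 and 1191), endothelial cells (-0.135 and -0.191, over 2889 and 2840), ciliated cells (-0.359 and -0.0757, over 31 and 52) and dendritic cells (-0.0299 and -0.177, over 85 and 89). Positive values were found in myofibroblasts (0.393 and 0.352, over 201 and 244 cells), NK cells (0.370 and 0.289, over 325 and 334), neutrophils (0.367 and 0.224, over 363 and 380) and AT1 cells (0.126 and 0.107, over 185 and 334). Alveolar macrophages (0.0364 and 0.268, over 293 and 266) and T cells (0.0712 and 0.0352, over 1411 and 1439) had weak values in at least 1 library. The 6 types of mixed sign were positive in CD and negative in HFD. Basophils had 0.584 and -0.0652 (over 29 and 33), monocytes 0.197 and -0.0838, and plasmacytoid dendritic cells 0.154 and -0.283 (over 30 and 40). Pericytes had 0.0918 and -0.122, macrophages other than alveolar ones 0.00249 and -0.116, and B cells 0.0682 and -0.00706. The coefficient was lower in HFD than in CD in 15 of the 17 types.

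When the cells of a type were divided into 4 equal groups by UMIs within each library, the median of neutrophils went from 0.327% in the shallowest to 1.61% in the deepest group of CD and from 0.475% to 0.997% in HFD. In myofibroblasts it went from 2.78% to 4.97% in CD and from 2.98% to 4.50% in HFD, and in NK cells from 1.79% to 2.79% and from 1.95% to 2.85%. The deeper cells of these 3 types thus held a larger share of mitochondrial molecules in both libraries.

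The opposite was found in AT2 cells, with 6.55% in the shallowest and 4.91% in the deepest group of CD and 7.35% and 5.12% in HFD. Fibroblasts went from 3.87% to 2.76% in CD and from 4.90% to 3.06% in HFD. Endothelial cells went from 4.13% to 3.39% and from 4.82% to 3.47%, most of it between the first and the second group in CD (3.41% in the second). In all 3 types the libraries differed more in the shallowest group than in the deepest one. Groups were cut within each library, so the shallowest ones were not of equal depth. Median UMIs there were 5221 in CD and 6119 in HFD for AT2 cells. They were 1454 and 1231 for fibroblasts, and 1397.5 and 1297.5 for endothelial cells. The shallow group also held the libraries apart in pericytes (2.76% and 3.71%) and in macrophages other than alveolar ones (3.05% and 4.72%). In ciliated cells the shallow group lay the other way, at 13.0% in CD (7 cells) and 7.37% in HFD (13 cells).

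AT1 cells and alveolar macrophages followed neither pattern. AT1 cells had 1.83% in the shallowest group of CD, 3.83% in the next and 3.22% in the deepest, and in HFD 2.12%, 4.28% and 3.62%. Alveolar macrophages had 3.59% in the shallowest and 4.27% in the deepest group of CD, and 1.60% and 4.26% in HFD. By medians, the libraries thus differed in the shallowest group of alveolar macrophages, which lay below the other groups. Its summed share was, in contrast, 6.05% in CD, the highest of the 4 CD groups (4.85%, 4.71% and 4.12% in the others), and 4.21% in HFD. In that shallowest group 17.8% of the CD cells and 12.1% of the HFD cells were above 10%, and 21.9% and 42.4% were below 1%.

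Several of these coefficients were smaller when ranks were taken within each fine cluster. The rho of endothelial cells was then 0.00222 in CD and -0.0476 in HFD, that of fibroblasts -0.115 and -0.0714, and that of myofibroblasts 0.204 and 0.167. Neutrophils had 0.294 and 0.141, and pericytes went from 0.0918 to -0.0187 in CD and from -0.122 to -0.174 in HFD. AT2 cells stayed close to their value over the whole type, at -0.170 and -0.237. Of the endothelial clusters, 6 of the 11 had a negative value in both libraries and 3 a positive one. Over the 44 clusters, 19 had a negative value in both libraries and 13 a positive one.

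**Figure D4:**
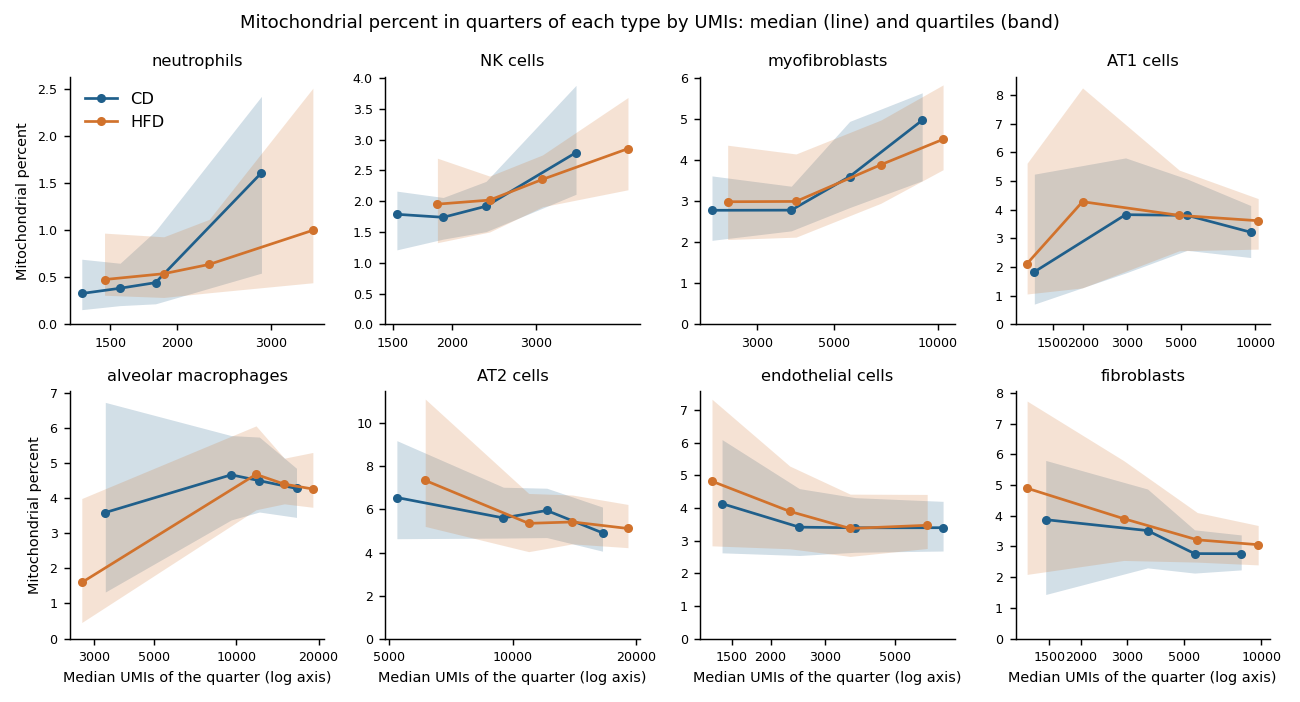
Mitochondrial percent against UMIs (log axis) in 8 cell types, each divided into 4 equal groups by UMIs within each library. Points are medians, bands the quartiles, CD in blue and HFD in orange, and each panel has its own vertical scale from 0. The line goes up with UMIs in neutrophils (0.327% to 1.61% in CD), and down in AT2 cells (6.55% to 4.91% in CD) and fibroblasts.

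The upper tail was described by cells above 10% mitochondrial UMIs, a level often used to discard cells. In CD it held 219 cells (2.49%). In HFD it held 399 cells (4.15%), which was 1.67 times the CD share (95% interval 1.41 to 1.98). After every cell was thinned to 1000 UMIs, the shares were 2.55% and 4.26%. The cells of the tail were shallow, with a median of 2475 UMIs in CD and 2070 in HFD compared to 3371 and 3650 among the other cells. Above 15% there were 58 CD and 110 HFD cells, and 6 and 15 cells lay between 19% and the limit of 20%.

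By type, the share above 10% was higher in HFD in 12 types, lower in 4 and 0 in both in basophils. In endothelial cells, the most numerous type, it held 78 of 2889 cells in CD (2.70%, 2.14 to 3.36) and 125 of 2840 in HFD (4.40%, 3.68 to 5.22). Cluster 1 held 33 of these 78 cells (8.05% of its 410 cells) and 59 of these 125 (10.2% of its 580). Endothelial cells made up 35.6% of the tail in CD and 31.3% in HFD. They were also 2889 of all 8793 cells in CD and 2840 of all 9604 cells in HFD. Of the AT2 cells, 25 were above 10% in the CD library (6.25%, 4.09 to 9.09), compared to 64 for HFD (10.1%, 7.86 to 12.7). Fibroblasts had 24 such CD cells (2.74%, 1.76 to 4.04) and 56 such HFD cells (4.70%, 3.57 to 6.06). The counting intervals of the libraries overlapped in AT2 cells and fibroblasts and not in endothelial cells, the type with the most cells, and whether types differed was not tested. In ciliated cells the tail was 8 of 31 cells in CD (25.8%) and 8 of 52 in HFD (15.4%), the highest shares of all types. Alveolar macrophages also had the larger share in CD, with 19 cells (6.48%) compared to 11 (4.14%).

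Cells above 10% were shallower than the rest of their type in some types only. Among AT2 cells they had a median of 3588 UMIs in CD and 6119 in HFD compared to 11147 and 13050.5 in the rest. Among endothelial cells the medians were 1669.5 and 1428 compared to 3097 and 2986. In contrast, B cells above 10% had 2587.5 and 3294 UMIs compared to 2468 and 2771, so that a high percent did not go with few UMIs there.

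**Figure D5:**
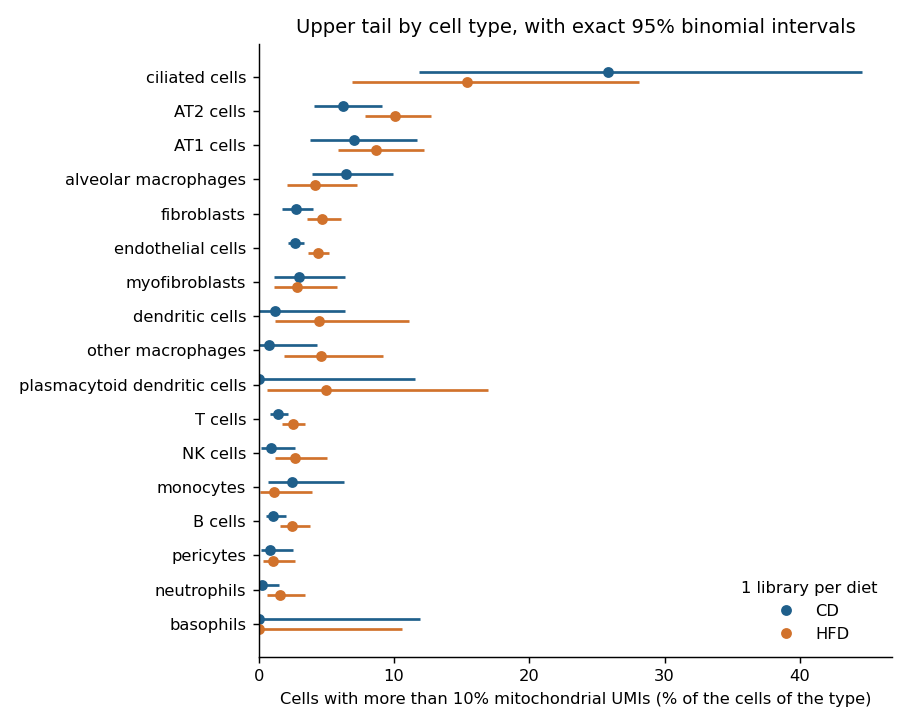
Cells with more than 10% mitochondrial UMIs as a percent of the cells of each type, CD in blue and HFD in orange, with exact 95% binomial intervals as lines. The share lies higher in HFD in endothelial cells (2.70% and 4.40%), AT2 cells (6.25% and 10.1%) and fibroblasts (2.74% and 4.70%), and the intervals, which cover counting error only, are wide in small types.

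Neutrophils were the most frequent type at the lower end. Cells below 1% numbered 682 in CD (7.76%) and 695 in HFD (7.24%), of which 258 (37.8%) and 265 (38.1%) were neutrophils. Among neutrophils 71.1% of cells in CD and 69.7% in HFD were below 1%, and among basophils 37.9% and 36.4%. In AT2 cells 11 cells in CD and 9 in HFD were below 1%, and these had 1481 and 1835 UMIs and 535 and 752 genes at the median, compared to 11026 and 12598 UMIs and 2800 and 3071 genes in the rest. Alveolar macrophages below 1% (21 and 31 cells) had 2974 and 2207 UMIs compared to 11164 and 14415. AT1 cells below 1% (26 and 49 cells) had 1576.5 and 1634 UMIs compared to 4570 and 3717. T cells below 1% (85 and 76 cells) were closer to the rest, with 3298 and 3336.5 UMIs compared to 3526 and 3955. Among types with at least 10 cells below 1%, these cells had the lower median of UMIs in 12 of 12 types in CD and in 10 of 11 in HFD.

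Cells with 0 mitochondrial UMIs numbered 41 in CD (0.466%, 0.335 to 0.632) and 8 in HFD (0.0833%, 0.0360 to 0.164). Neutrophils made up 16 of them in CD and 3 in HFD, and fibroblasts 6 and 1. Their UMIs had a median of 1447 in CD and 1641.5 in HFD, so that a count of 0 allowed a share of up to 3 counts of these totals. The deepest, a CD cell of unannotated cluster 39, had 14251 UMIs in only 855 detected genes, which allows a share of up to 0.0211%. Free RNA in the suspension adds molecules to every droplet, and its part in these shares was not tested.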

How the data were processed

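By the study's methods, reads were mapped by the authors with Cell Ranger to GRCm38.p6 (mm10). The authors merged both libraries in Seurat (4.1.0 in the submitters' processing notes), removed cells by limits that included 20% mitochondrial UMIs, and clustered the cells jointly in Monocle on 1000 highly variable genes. The deposited table of cells holds 2 raw counts per cell, its UMIs and its detected genes, and the authors' percent of UMIs in mitochondrial genes. BALB/c reads were thus mapped to the reference strain, and the effect on these genes was not tested.

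Percent times UMIs was whole (tolerance 1e-06) in 100% of 18397 cells and gave the mitochondrial count of each cell. Shares were given exact (Clopper-Pearson) 95% intervals, ratios of UMI or cell shares 95% intervals, and types and clusters medians and quartiles. Cell types were the authors' annotation. Rows of the table name the library of each cell, which set its diet. The 13 gene identifiers were matched to GENCODE M21 (GRCm38), 13 of 13, for positions and sequences. Depth per cell ran upwards from 1000 UMIs in CD and 1001 in HFD, above the minimum that the study's methods give. The effect of this higher floor on the values of shallow cells was not tested.

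All 13 genes and all types were named. Of clusters with at least 20 cells in each library, those named were the 3 lowest and 3 highest by the mean of both medians. From the same set came the 3 with the largest difference between library medians. The AT1 and AT2 clusters and all unannotated ones were also named. The genes and comparisons were chosen with earlier results of these data known. The calculations were tested on simulated data. For the intervals, simulated cells of a type varied by counting alone, so this could not show how intervals behave under the wider spread of these cells. Alternatives are given in the closing section. Software: matplotlib 3.10.9, scipy 1.17.1, numpy 2.4.6 and pandas 2.3.3 under Python 3.11.15.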

Additional observations from a re-analysis of the deposited data

Results flagged for a closer look

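The summed mitochondrial share of basophils had an HFD minus CD difference of -0.351 percentage points (from 1.69% in 29 CD cells to 1.34% in 33 HFD cells), and that of monocytes one of -0.245 (from 2.71% in 160 cells to 2.47% in 182), whereas 13 other types had a share that was higher beyond counting error. Counting error is narrower than the spread between cells warrants. The 13 include AT2 cells, with a ratio of 1.01 and a median that was lower in HFD. By the median over cells the difference was -0.120 in basophils and 0.0065 in monocytes, and by the mean -0.0925 and -0.0796. The difference between these types and the others was not tested, because each diet had 1 library.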

How the results depend on the processing

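No paired analysis was possible because the design has a single library for either diet. Of 38 alternatives, 27 left their result within the spread set for it and 11 moved it. Reversal could be scored only for the ratio of the summed share, the difference within types and the ratio of the tail. It occurred there in 0 alternatives. For counts of types the spread was a factor of 1.5, a wide one. With ranks within fine clusters, 5 types stayed negative in both libraries, but endothelial cells left this set (0.00222 in CD) and pericytes entered it (-0.0187 and -0.174). The 6 that leave out shared barcodes, cells of 0 mitochondrial UMIs or endothelial cells were chosen after seeing the data, and none of these 6 moved a result. The HFD to CD ratio of the summed share (1.07) was 1.06 from medians over cells, 1.10 from means, 1.04 among cells of at most 10% mitochondrial UMIs, 1.06 and 1.05 among cells of at least 2000 and 3000 UMIs, 1.08 without the 1% of cells with the most UMIs, which may include doublets, and 1.08 among annotated cells. The difference within types (0.336 percentage points) was 0.205 among cells of at most 10% and 0.125 among cells of at least 3000 UMIs. A higher median in HFD was found in 13 of 17 types and 9 of 16 among cells of at least 3000 UMIs. Counted over fine clusters it was 34 of 44, where the unit counted differs and the share is alike. The ratio of the tail above 10% (1.67) was 1.30 above 5%. The causes of these shifts were not tested. Depth limits the percent of single cells, which in neutrophils rests on medians of 8 and 12 molecules.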
